A study of Homo sapiens with 18 samples.

Results

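The clustered protocadherin genes are 53 protein-coding genes on human chromosome 5 whose symbols begin with PCDHA, PCDHB or PCDHG followed by a number, a letter or C. All 53 were found among the 34255 genes of the deposited transcript table, 15 in the PCDHA cluster, 16 in the PCDHB cluster and 22 in the PCDHG cluster, and they held 126 of its 184844 transcripts. They were read in HEK293 cells, a human embryonic kidney line, and in derivatives of this line that lack either both β-arrestins or Gαs. The libraries formed 6 groups of 3 biological replicates. These were wildtype basal, wildtype isoproterenol, β-arrestin1/2 KO basal, β-arrestin1/2 KO isoproterenol, Gαs KO basal and Gαs KO isoproterenol. Every group carried a transfected β2-adrenergic receptor plasmid and was serum starved, so the receptor level is that of the plasmid and not of the parent line. At 48 h after transfection the cells received 1 µM isoproterenol, a β-adrenergic agonist, or vehicle (basal) for 1 h. The sources used here do not say whether either KO line is 1 clone, and a deletion and the history of its line cannot be told apart in these data. The comparisons asked which members each line used and whether any member responded to isoproterenol.

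Clustered protocadherins are cadherin-like adhesion proteins that pair with identical copies on a neighbouring cell and are best known for giving single neurons a surface identity. Each PCDHA and PCDHG gene begins with its own promoter and a large variable exon, which in full-length transcripts is spliced to constant exons shared by the whole cluster, whereas PCDHB genes consist of 1 large exon without constant exons. Most members, the alternate ones, are used by some cells and silent in others, with CTCF and cohesin joining a chosen promoter to an enhancer and DNA methylation holding the others silent. The C-type members PCDHAC1, PCDHAC2, PCDHGC3, PCDHGC4 and PCDHGC5 lie at the 3′ ends of their clusters and are regulated separately from the alternate ones.

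In the GENCODE release 29 annotation (GRCh38) the members extended over 726.8 kb of chromosome 5, from position 140786136 to 141512981. The first PCDHA constant exon (chr5:140978949-140979007) was carried by transcripts of 15 genes and the first PCDHG constant exon (chr5:141494807-141494865) by transcripts of 22 genes. They are printed because a read lying in them names the cluster and not the member, and the 2 exons were identical at 39 of 59 positions.
PCDHA constant exon: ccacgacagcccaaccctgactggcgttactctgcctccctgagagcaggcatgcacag
PCDHG constant exon: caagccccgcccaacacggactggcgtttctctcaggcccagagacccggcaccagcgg
How far a member can be told from the others is therefore set by its variable exon. The share of a gene's 31-base stretches found in no other gene had a median of 77.2% in PCDHB, 54.9% in PCDHG and 46.4% in PCDHA. The lowest share was 26.6%, in the PCDHG cluster, and the lowest in PCDHB was 41.6%, for PCDHB8. The values of single members therefore rest in part on how the quantification split shared reads.

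The most frequent 10-base word of the promoters differed between clusters. RefSeq promoter windows (GRCh38.p14, 250 bases before to 50 after the start) were found for 47 members. CGCT, the core of the conserved element of these promoters, occurred on either strand in 46 of the 47, but also in 70.0% of all 35116 promoters. Among 10-base words the one in most member promoters was GGTGGCGCTG. It occurred in 12 of 14 PCDHB promoters, in no PCDHA or PCDHG promoter, and on either strand in 0.276% of all promoters. The same search within the other clusters, made after seeing that result, gave ATGATGTCGC in 8 of 13 PCDHA promoters (0.0313% of all promoters) and GCGCCGCTGT in 9 of 20 PCDHG promoters (0.131%). Each word was picked as the most frequent in these same promoters, and the shares of all promoters include the members. The contrast with all promoters is therefore a description only. The windows below show the word in capitals with 12 bases on either side. They are from members called higher in a KO line at basal and from members with too few reads to be tested.
PCDHB2 (chr5:141094543-141094576, higher in both KO lines): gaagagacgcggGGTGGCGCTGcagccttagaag
PCDHB12 (chr5:141208642-141208675, higher in both KO lines): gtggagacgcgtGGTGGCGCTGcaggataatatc
PCDHB4 (chr5:141121722-141121755, at most 7 counts in any library): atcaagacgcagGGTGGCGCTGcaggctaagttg
PCDHB7 (chr5:141172565-141172598, at most 5 counts): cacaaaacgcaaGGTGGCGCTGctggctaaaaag
PCDHA8 (chr5:140841127-140841160, higher in the Gαs KO line): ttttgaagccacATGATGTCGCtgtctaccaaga
PCDHA5 (chr5:140821539-140821572, at most 9 counts): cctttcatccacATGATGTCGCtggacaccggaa
PCDHGB1 (chr5:141350025-141350058, higher in both KO lines): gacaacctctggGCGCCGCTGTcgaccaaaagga
PCDHGB4 (chr5:141387617-141387650, at most 14 counts): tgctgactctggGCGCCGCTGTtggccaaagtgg
In the windows shown the word lay upstream of the annotated start on the plus strand, and the PCDHB and PCDHG words contain CGCT. In the PCDHA windows shown the word ends in CGC and the next base is t, so CGCT is present there as well. Of the 12 PCDHB genes with the word, 6 were called higher in the Gαs KO line and 3 had too few reads to be tested, and of the 2 without it 1 was called. Members called higher and members with too few reads to be tested thus carried the same letters.

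The 18 libraries held between 17908597 and 25019834 counts, of which 92.9 to 93.7% fell on annotated genes. Library 1 of the wildtype basal group stood apart from the rest, with a mean GC content of 52.5% over its counted transcripts against 49.2 to 50.1% in the other libraries. GNAS, which encodes Gαs, fell from 25210 ± 7252 normalized counts in wildtype basal to 1264 ± 96.4 in Gαs KO basal (SD, n = 3 each). In β-arrestin1/2 KO basal ARRB2 fell to 397 ± 48.7 from 1892 ± 546, whereas ARRB1, at 786 ± 54.9 against 948 ± 268, was not called. Here a normalized count is a read count divided by the library's TMM-scaled size relative to the mean of the 18, and "called" means an adjusted p under 0.05 in edgeR's quasi-likelihood test over 15519 genes. Of the 11 HEK293 markers, 10 had at least 10 counts in every library of every group, and among markers of other cells CD3E and HBB were at 0 throughout while PTPRC reached at most 4 counts. LYZ, the other blood marker, had at least 10 counts in every library, with group means of 24.9 to 35.4 normalized counts, and the endothelial genes CDH5 and PECAM1 reached at most 26 and 12 counts. Of 4 fibroblast genes 3 were tested, and in Gαs KO basal COL3A1 (304 against 67.2 normalized counts in wildtype) and LUM (32.7 against 7.42) were called higher and COL1A1 (395 against 667) lower, while the list's sum lay at 688 to 791 against 601 to 979. The sum of the HEK293 markers was higher in Gαs KO basal, at 59320 to 60550 against 37420 to 49800. The part of these shifts in the results was not tested.

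**Figure D1:**
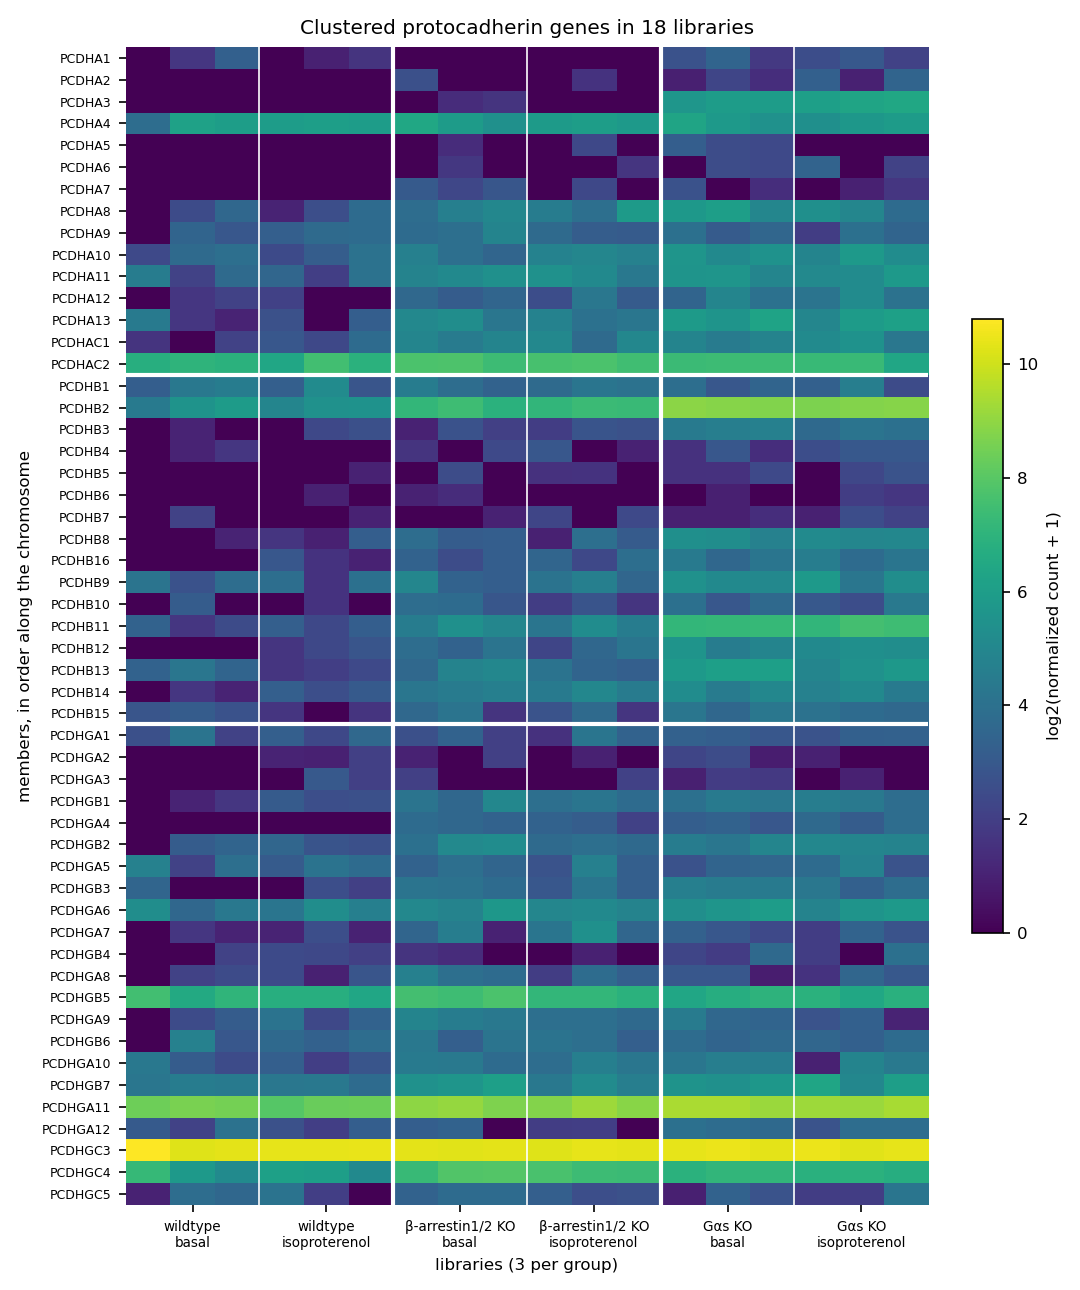
Each row is 1 of the 53 members in order along the chromosome, each column 1 of the 18 libraries, and the colour is log2(normalized count + 1), with thick white lines between lines and clusters. PCDHGC3 is bright in every column, while PCDHA3, PCDHB2 and PCDHB11 are brighter in the 6 Gαs KO columns.

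Wildtype cells used few members. In the wildtype basal libraries 9 of 53 members had at least 10 counts in each of the 3 libraries, namely PCDHA4, PCDHAC2, PCDHB2, PCDHGA6, PCDHGB5, PCDHGB7, PCDHGA11, PCDHGC3 and PCDHGC4. The PCDHA4 counts lay on a transcript without constant exons, as described below. The β-arrestin1/2 KO line had 27 such members at basal and the Gαs KO line 32. By cluster these were 2 PCDHA, 1 PCDHB and 6 PCDHG genes in wildtype, 9, 5 and 13 in β-arrestin1/2 KO, and 9, 10 and 13 in Gαs KO. Over all 6 libraries of a line, 6 members were at 0 counts throughout in wildtype (PCDHA2, PCDHA3, PCDHA5, PCDHA6, PCDHA7 and PCDHGA4), 1 in β-arrestin1/2 KO (PCDHA1) and 0 in Gαs KO. A count of 0 in a library allows up to 3 counts. In bulk RNA more cells using a member and more RNA per using cell cannot be told apart.

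The same gene led each cluster in all 3 lines. Levels were compared between genes as TPM, which divides counts by transcript length and by the library's total. PCDHGC3, a C-type member, made up 70.4 ± 2.65% of the PCDHG level in wildtype basal, 54.7 ± 1.73% in β-arrestin1/2 KO basal and 55.2 ± 1.64% in Gαs KO basal (SD, n = 3 each). PCDHGA11 came second in each, at 14.8 ± 3.23%, 18.4 ± 2.37% and 23.3 ± 2.61%. PCDHAC2 led PCDHA with 56.0 ± 7.66%, 45.8 ± 2.91% and 32.0 ± 2.30% in the same order of lines. PCDHB2 led PCDHB with 47.9 ± 18.9%, 52.4 ± 4.65% and 55.8 ± 1.99%. The members next in order differed in part. In PCDHA they were PCDHA11 and PCDHA4 in wildtype, PCDHA11 and PCDHAC1 in β-arrestin1/2 KO, and PCDHA8 and PCDHA13 in Gαs KO, the last 2 at 11.4 ± 2.39% and 11.2 ± 4.25%. The wildtype place of PCDHA11, at 15.0 ± 19.2%, rests on library 1 at 37.1%. In the wildtype isoproterenol libraries PCDHA4 came before it, with 16.6 ± 3.75% against 6.43 ± 5.11%. After PCDHB2 at basal came PCDHB9 (11.2 ± 9.1%) and PCDHB11 in wildtype. In β-arrestin1/2 KO these places were held by PCDHB11 and PCDHB14, and in Gαs KO by PCDHB11 and PCDHB8. The third PCDHG member at basal was PCDHGB5 in wildtype and PCDHGC4 in both KO lines. Counted by how many members were needed to reach 80% of the cluster's level, PCDHA at basal took 3 members in wildtype against 5 in β-arrestin1/2 KO, with 6 in Gαs KO, while PCDHG took 2, 3 and 3, and PCDHB 5, 6 and 4.

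Summed over each cluster, PCDHB had the largest ratio between lines of the 3 clusters. Its summed normalized count was 101.8 ± 27.1 in wildtype basal, 311 ± 39.9 in β-arrestin1/2 KO basal and 887 ± 48.5 in Gαs KO basal, and the 3 ranges did not overlap. The sum was thus 8.71 ± 2.36-fold wildtype in Gαs KO and 3.06 ± 0.90-fold in β-arrestin1/2 KO (SD from the spread of both groups). PCDHA was also separate, at 217 ± 40.4, 430 ± 36.9 and 551 ± 27.4, or 1.98 ± 0.40-fold and 2.53 ± 0.49-fold wildtype. PCDHG was at 2149 ± 370, 2473 ± 33.5 and 2506 ± 81.8, and wildtype overlapped the KO lines only through library 1 at 2575, the other 2 libraries being at 1911 and 1961. In the isoproterenol groups wildtype, at 1912 to 1967, lay below β-arrestin1/2 KO at 2180 to 2521 and Gαs KO at 2320 to 2526. Scaled by length, the basal PCDHG level was 51.8 ± 2.03 TPM in wildtype against 62.8 ± 2.62 and 61.9 ± 2.17 in the KO lines, without overlap. The summed counts of a cluster do not depend on how reads were divided between its members, whereas the TPM sum does through transcript length. All these sums are given without a test because the members were chosen.

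**Figure D2:**
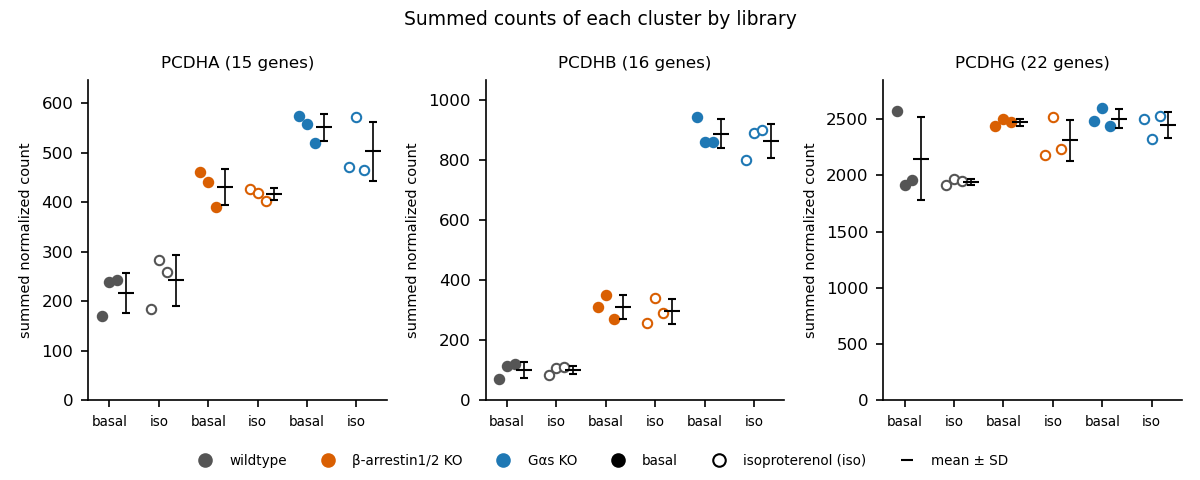
Summed normalized counts of the PCDHA, PCDHB and PCDHG genes on a linear axis, 1 point per library (filled basal, open isoproterenol) with mean ± SD beside each group. PCDHB runs from 70.8 to 120.9 in wildtype basal to 858 to 943 in Gαs KO basal, and the wildtype PCDHG points lie below both KO lines except library 1 of wildtype basal at 2575.

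Divided by promoter type instead, the sums of the 5 C-type genes differed less between lines than those of the alternate genes. Most of the C-type sum was PCDHGC3, at 1776, 1249 and 1294 normalized counts in wildtype basal. It had 1319, 1274 and 1304 in β-arrestin1/2 KO basal and 1338, 1406 and 1316 in Gαs KO basal. At basal 3 of the 5 were called higher than wildtype in β-arrestin1/2 KO, 1 in Gαs KO and 0 lower in either. The sum therefore does not describe each C-type gene. Unlike the cluster sums, sums by type depend on how shared reads were divided between members. The C-type sum was 1649 ± 336 normalized counts in wildtype basal, 1745 ± 20.3 in β-arrestin1/2 KO basal and 1681 ± 52.0 in Gαs KO basal. The wildtype libraries stood at 2037, 1450 and 1461, so only library 1 reached the KO range of 1650 to 1759 and the other 2 lay below every KO library. After isoproterenol wildtype lay at 1522 to 1590, below the 1660 to 1736 of β-arrestin1/2 KO and overlapping the 1573 to 1739 of Gαs KO. The 13 alternate PCDHA genes summed to 96.5 ± 31.9, 204 ± 14.7 and 358 ± 29.5, and the 19 alternate PCDHG genes to 620 ± 27.9, 953 ± 29.3 and 1017 ± 32.2. The alternate PCDHG sums of the KO lines met at 981.4 and 981.7 at basal and overlapped after isoproterenol. The share of all member counts held by the C-type genes was accordingly 66.4 ± 5.16% for wildtype basal, 54.3 ± 1.34% for β-arrestin1/2 KO basal and 42.6 ± 1.19% for Gαs KO basal. In the isoproterenol libraries the shares were 67.9 ± 1.74%, 56.2 ± 2.84% and 43.0 ± 2.90%.

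Against wildtype, the Gαs KO line had more reads for 21 of the 53 members and fewer for 0 at basal, when 41 members had enough reads to be tested. Over all genes tested 14.2% were called higher in the Gαs KO line and 31.3% were called in either direction. Because the filter passes a gene that is high in only 1 group, some members could pass only through the line in which they were high, and the 12 that did not pass reached at most 14 counts in any library. Those were PCDHA1, PCDHA2, PCDHA5, PCDHA6, PCDHA7, PCDHB4, PCDHB5, PCDHB6, PCDHB7, PCDHGA2, PCDHGA3 and PCDHGB4. Without any filter, all 3 Gαs KO libraries lay above all 3 wildtype libraries for 32 of the 53 members and below them for 0. Of all genes with a count 13.9% lay above, and the share below was not counted. A member at 0 counts in any wildtype library cannot lie below, so the 0 says little for members with few wildtype reads. The called members were 6 of the alternate PCDHA genes, 8 PCDHB genes, 6 alternate PCDHG genes and the C-type PCDHAC1. The median log2 fold change over the 41 tested members was 1.78, or 1.71 with the 4 members that had 0 counts in wildtype basal set to their lower bounds, against 0.01 over all genes.

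PCDHA3 had the largest fitted fold change of the called members, though its size depends on the fit's prior count. Its normalized counts in Gαs KO basal were 50.4, 61.9 and 61.1, with 0 in each of the 6 wildtype libraries, which is at least 17.7-fold higher against a floor of 3 counts per library. In β-arrestin1/2 KO basal it had 0, 1.58 and 2.12, values at or under that floor. PCDHB2 stood at 486, 461 and 435 in Gαs KO against 20.8, 45.7 and 60.4 in wildtype, a log2 fold change of 3.45 ± 0.26 (SE, adjusted p = 7.3e-08 by edgeR). PCDHB11 stood at 140.0, 145 and 149 against 9.38, 2.23 and 4.48, a log2 fold change of 4.71 ± 0.41 (adjusted p = 3.4e-07 by edgeR). In neither gene did the groups overlap.

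Further PCDHB members went from no or nearly no reads to a low level. PCDHB12 had 47.6, 22.5 and 28.5 normalized counts in Gαs KO basal and 0 in all 3 wildtype basal libraries, at least 10.0-fold higher. PCDHB16 had 20.5, 11.2 and 17.6 against 0, at least 5.02-fold higher. PCDHB8 totalled 116 counts over the Gαs KO basal libraries and 1 over the wildtype ones, a ratio of 95.8 with a 95% counting interval of 16.9 to 3814, and PCDHB14 totalled 100 and 3, a ratio of 27.5 (9.15 to 136). These intervals cover counting error only. PCDHB8 is the PCDHB gene with the smallest share of sequence of its own, so its value is the least certain of these.

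Of the alternate PCDHA genes, PCDHA8 rose from 5.22 ± 5.63 normalized counts in wildtype basal to 49.0 ± 17.5 in Gαs KO basal, a log2 fold change of 3.22 ± 0.83 (adjusted p = 0.0072 by edgeR), and PCDHA13 from 8.06 ± 11.1 to 60.3 ± 14.8, a change of 2.86 ± 0.74 (adjusted p = 0.0075). In the isoproterenol libraries PCDHA8 was not called in Gαs KO, at 28.0 ± 14.4 against 6.23 ± 5.81 in wildtype, but was called higher in β-arrestin1/2 KO. Its share of sequence of its own, 28.5%, was the lowest in PCDHA, so its value is uncertain. PCDHA4, the alternate PCDHA gene with most reads in wildtype, was not called, at 49.2 ± 31.2 against 58.8 ± 17.9, and its wildtype value of 13.5 in library 1 lay far from the 71.4 and 62.7 of the others. In PCDHG the PCDHGA11 reads rose from 340.6, 390.3 and 376 to 679, 681 and 574 (0.80 ± 0.14, adjusted p = 3e-04), and PCDHGA4 from 0 in every wildtype library to 8.40, 9.37 and 6.70, at least 2.49-fold higher. PCDHGC3 had 1338, 1406 and 1316 against 1776, 1249 and 1294, and was not called (log2 fold change -0.09 ± 0.10).

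The β-arrestin1/2 KO line was also above wildtype, with 18 of 53 members called higher and 0 lower at basal. Fitted on only these 6 libraries the count was 6, and at an adjusted p under 0.01 it was 11. Over all genes tested 15.7% were called higher in this line and 33.6% in either direction. All 3 libraries lay above all wildtype libraries for 22 members and below for 0, against 13.8% of all genes with a count above. As for Gαs KO, a member at 0 in a wildtype library could not lie below. The share of all genes below was again not counted. The median log2 fold change over tested members was 1.71, or 1.42 with members at 0 in wildtype at their bounds and PCDHA3, at or under the floor in both lines, left out, against 0.02 over all genes. Both comparisons use the same wildtype libraries. Of the 18 members, 13 were also called in the Gαs KO line, which is 72.2% of the first list and 61.9% of the second. Those called in β-arrestin1/2 KO but not in Gαs KO were PCDHAC2, PCDHGA7, PCDHGA8, PCDHGA9 and PCDHGC4, but none of these was called between the KO lines, where their adjusted p ran from 0.092 to 0.515 by edgeR. Without library 1 of wildtype basal, PCDHGA7, PCDHGA8 and PCDHGA11 were not called in β-arrestin1/2 KO, and PCDHGC4 was called in Gαs KO. In that refit PCDHGA8 and PCDHGC4 were also called between the KO lines, where 12 members were called in place of 9.

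The members differed in size between the KO lines. PCDHB2 stood at 141, 174 and 118 normalized counts in β-arrestin1/2 KO basal, above wildtype (log2 fold change 1.78 ± 0.26, adjusted p = 6.7e-05 by edgeR) and below Gαs KO. PCDHB11 stood at 22.0, 42.0 and 29.6 (2.51 ± 0.42, adjusted p = 0.00026). PCDHB12 was at 13.6, 9.50 and 16.9, at least 4.08-fold above wildtype, PCDHGA4 at 12.6, 11.1 and 9.52, at least 3.38-fold above, and PCDHB16 at 9.44, 4.75 and 8.46, at least 2.30-fold above. PCDHB8 totalled 31 counts against 1, a ratio of 27.0 with a counting interval of 4.49 to 1099.

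Of the C-type genes 3 were called in this line. PCDHAC1 had 29.4, 21.4 and 28.6 normalized counts against 2.08, 0 and 3.36 in wildtype (3.77 ± 0.66, adjusted p = 0.00035 by edgeR), close to its 28.0, 21.6 and 27.6 in Gαs KO. PCDHAC2 was at 211, 217 and 169 against 108, 130 and 119 (0.74 ± 0.25, adjusted p = 0.031). PCDHGC4 was at 153, 234 and 240 against 150, 56.9 and 34.7 (1.37 ± 0.38, adjusted p = 0.01), and here the lowest KO value lay just above library 1 of wildtype. PCDHGC5 stayed at or below 17.1 in every library and was not called in any comparison, and PCDHGC3 was not called either (-0.15 ± 0.10).

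**Figure D3:**
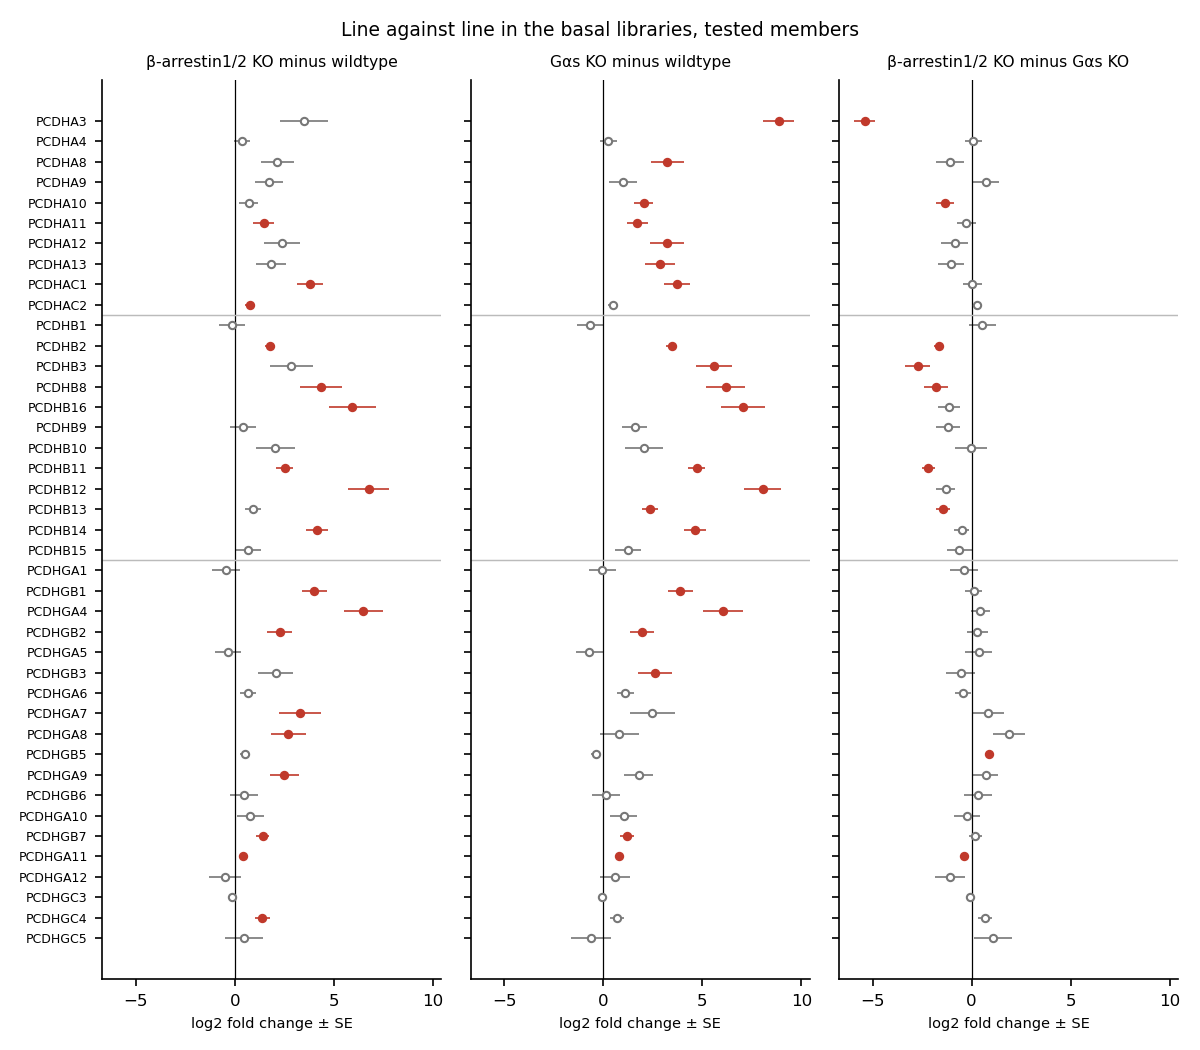
Log2 fold change ± SE for the 41 tested members in order along the chromosome, for each KO line against wildtype and for the KO lines against each other at basal, with filled red points for adjusted p under 0.05. Called points lie to the right of 0 in both comparisons with wildtype, and for genes at 0 in wildtype (PCDHA3, PCDHB12, PCDHB16, PCDHGA4) the plotted fold depends on the fit's prior count.

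Set against each other at basal, the KO lines differed in 9 members, 8 lower and 1 higher in β-arrestin1/2 KO. These 9 are 22.0% of the 41 tested members, which is not above the 26.2% of all genes called in either direction. Over all genes tested 12.4% were called lower in this line. The lower members were PCDHA3, PCDHA10, PCDHB2, PCDHB3, PCDHB8, PCDHB11, PCDHB13 and PCDHGA11. PCDHA3, at no more than 2 counts in any β-arrestin1/2 KO basal library, was at least 19.9-fold higher in Gαs KO against the floor. PCDHB11 differed by a log2 fold change of -2.20 ± 0.33 (adjusted p = 0.00011 by edgeR) and PCDHB2 by -1.67 ± 0.23 (adjusted p = 5.1e-05). PCDHGB5 went the other way, with 188, 175 and 214 normalized counts in β-arrestin1/2 KO against 83.1, 104 and 126 in Gαs KO (0.88 ± 0.22, adjusted p = 0.0074). Wildtype lay between at 183, 92.6 and 132 and overlapped both. Without a filter, all 3 β-arrestin1/2 KO libraries lay below all 3 Gαs KO libraries for 17 of 53 members and above them for 6. Of all genes with a count 19.8% lay below, and the share above was not counted. Of the 9 called members 5 were PCDHB genes.

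**Figure D4:**
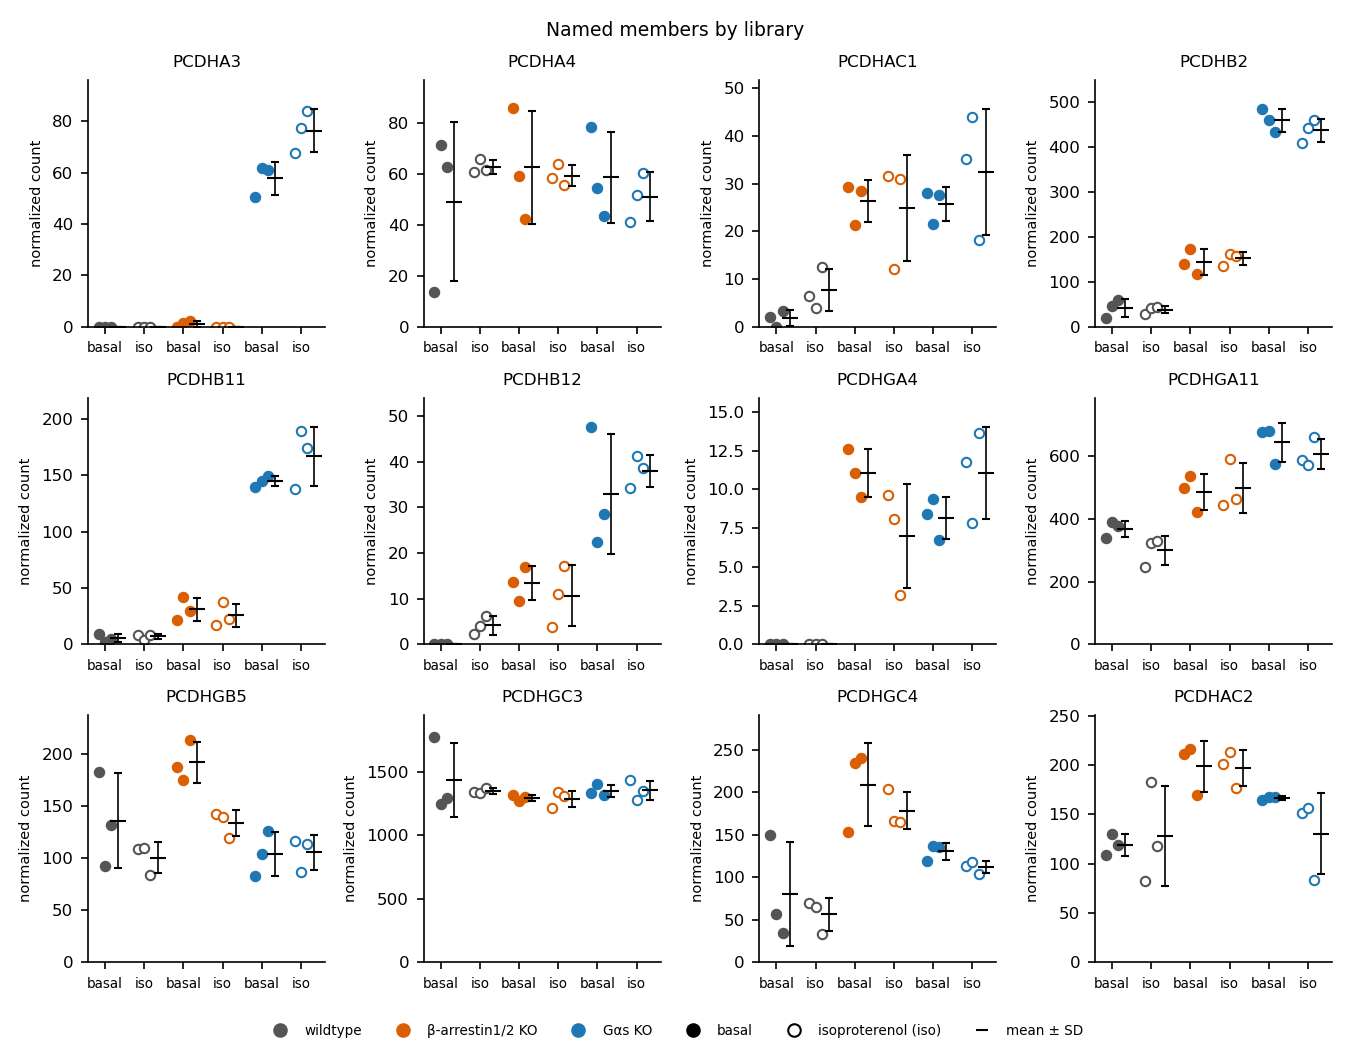
Normalized counts of 12 named members on linear axes that start at 0, 1 point per library (filled basal, open isoproterenol), with mean ± SD beside each group. PCDHA3 is above the floor in the 6 Gαs KO libraries, PCDHB2 and PCDHB11 rank wildtype, β-arrestin1/2 KO, Gαs KO, and PCDHGC3 lies between 1215 and 1436 outside library 1 of wildtype basal.

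The line differences were also seen in the libraries of the isoproterenol groups, which are separate samples. There 22 members were called higher and 0 lower in Gαs KO against wildtype (14.1% of all genes called higher, 29.9% in either direction), and 19 of them were also called at basal. In β-arrestin1/2 KO against wildtype 13 were called higher and 0 lower (14.3% of all genes higher, 30% in either direction), of which 9 were shared with the 18 at basal. Between the KO lines 7 were called, all lower in β-arrestin1/2 KO, 5 of them shared. They are 17.1% of the 41 members tested, against 15.7% of all genes called lower and 31.1% in either direction. All 3 libraries of the KO line lay above all wildtype libraries for 27 of 53 members in Gαs KO and 19 in β-arrestin1/2 KO, against 19.5% and 19.0% of all genes. They lay below for 2 members in Gαs KO (PCDHA4 and PCDHGA2) and for 3 in β-arrestin1/2 KO (PCDHGA2, PCDHGB4 and PCDHGA12). The share of all genes lying below was not counted, so how usual these counts are is not known. PCDHA3 was at 67.5, 77.3 and 84.2 in Gαs KO isoproterenol, and PCDHB2 at 409, 443 and 460.5 against 29.3, 42.6 and 43.9 in wildtype isoproterenol. PCDHB12 was less separate, with 3.84, 11.1 and 17.1 in β-arrestin1/2 KO isoproterenol against 2.17, 4.05 and 6.27 in wildtype isoproterenol.

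No member was called in response to 1 h of isoproterenol by edgeR in any line. In wildtype 0 of 41 tested members were called, with 10 at an unadjusted p under 0.05, where 0.464% of all genes were called and 1629 of 15519 were at an unadjusted p under 0.05. In β-arrestin1/2 KO 0 were called, with 4 at an unadjusted p under 0.05, against 1.13% of all genes called and 1289 of 15519 at an unadjusted p under 0.05. In Gαs KO 0 were called and 0 were at an unadjusted p under 0.05, against 0.0% of all genes called and 163 of 15519 at an unadjusted p under 0.05. DESeq2 called 0 members in each line as well. These backgrounds moved with library 1 of wildtype basal. Without it 11.7% of all genes were called in β-arrestin1/2 KO and 1.10% in wildtype, and the members called were still 0 in both.

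How closely a response was bounded depended on the reads. For the 9 members with at least 10 counts in all 18 libraries, log2 fold changes of isoproterenol over basal lay between -0.53 and 0.36 for wildtype, -1.0 and 0.07 for β-arrestin1/2 KO, and -0.35 and 0.35 for Gαs KO, with SEs from 0.10 to 0.43. PCDHGC3 had the most reads, at 1347, 1335 and 1378 after isoproterenol in wildtype against the basal values above. The C-type sums were 1649 ± 336 basal and 1551 ± 35.3 isoproterenol in wildtype, 1745 ± 20.3 and 1696 ± 38.5 in β-arrestin1/2 KO, and 1681 ± 52.0 and 1637 ± 89.1 in Gαs KO.

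The lowest adjusted p values among members came from genes with few reads in wildtype. PCDHB12 went from 0 in each basal library to 2.17, 4.05 and 6.27 normalized counts (adjusted p = 0.12 by edgeR), PCDHB14 from 0, 2.23 and 1.12 to 8.69, 5.07 and 7.31 (adjusted p = 0.12), and PCDHB13 had a log2 fold change of -1.94 ± 0.50 (adjusted p = 0.16). None passed the threshold. The difference between the response in a KO line and that in wildtype was called for 0 members in β-arrestin1/2 KO (0.168% of all genes) and 0 in Gαs KO (0.161%), and DESeq2 called 0 in both. Of the 41 tested members, 6 and 8 were at an unadjusted p under 0.05 by edgeR, against 864 and 719 of 15519 genes. That is a larger share of the members than of all genes. Without library 1 of wildtype basal, PCDHB12 was the 1 member called in the β-arrestin1/2 KO difference (adjusted p = 0.045 by edgeR), where 8.25% of all genes were then called. Its unadjusted p was 0.0033 then and 0.0011 with all libraries, and its wildtype values were at most 6.27.

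**Figure D5:**
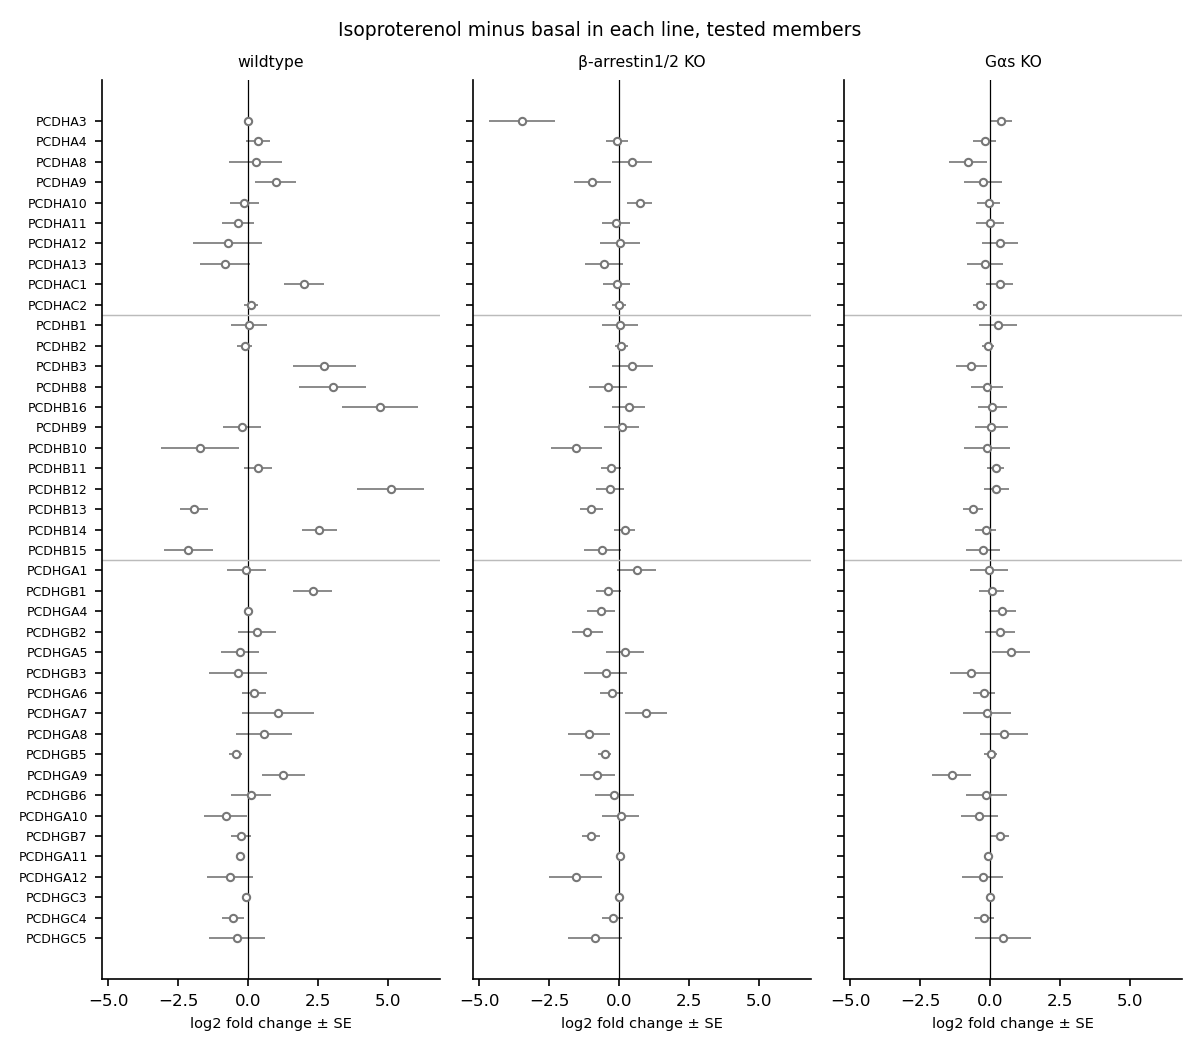
Log2 fold change ± SE of isoproterenol over basal for the 41 tested members in each line, in order along the chromosome and on a shared axis, with open grey points because none had an adjusted p under 0.05. Members with most reads, such as PCDHGC3 and PCDHGA11, have the shortest bars, and members at 0 counts in both wildtype groups (PCDHA3, PCDHGA4) are drawn at 0.

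At the level of transcripts, the forms with constant exons held 88.3 to 91.5% of PCDHG counts as group means, but only 50.3 to 69.2% of PCDHA counts. The rest was assigned to annotated transcripts without the constant exons. For PCDHA4 100% of the 1028 counts lay on such a transcript of 10557 bases (chr5:140807037-140817593) and 0 on its forms with constant exons. Its shorter form without constant exons, of 2328 bases, also had 0. For PCDHA10 94.2% lay on one of 12358 bases (chr5:140855883-140868240). Both long transcripts are as long as the stretch of chromosome they cover. Whether their reads come from spliced RNA of these genes was not tested. PCDHAC2 and PCDHGC3, by contrast, had 90.2% and 97.3% in forms with constant exons. For PCDHA3 this share was 62.5%.

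Genes around the locus were called in both directions in β-arrestin1/2 KO. Of 19 other protein-coding genes inside the locus or among the 8 nearest on either side, 17 were tested. In Gαs KO basal 4 were called higher and 0 lower than in wildtype, and in β-arrestin1/2 KO 6 higher and 3 lower, with median log2 fold changes of 0.14 and -0.05. These are 23.5% and 52.9% of those tested, against 31.3% and 33.6% of all genes. TAF7, which encodes a subunit of the general transcription factor TFIID and lies between PCDHB and PCDHG, differed by 0.34 ± 0.12 in Gαs KO (adjusted p = 0.043 by edgeR) and 0.33 ± 0.12 in β-arrestin1/2 KO (adjusted p = 0.049). FCHSD1 differed by 0.92 ± 0.17 and 0.84 ± 0.17 in the same order (adjusted p = 0.00051 and 0.001). Of 6 cluster pseudogenes 3 were tested and 0 called by edgeR in a basal comparison of lines. The most counted was PCDHB18P at 6.88 ± 3.07 normalized counts for wildtype basal, 17.0 ± 3.11 for β-arrestin1/2 KO basal and 17.1 ± 8.40 for Gαs KO basal.

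Protocadherins and giant cadherins outside the clusters moved in both directions. Of 18 such genes 17 were matched and 16 tested, with 4 higher and 5 lower in Gαs KO and 5 higher and 4 lower in β-arrestin1/2 KO than in wildtype at basal (medians 0.14 and -0.02). This is 56.2% of those tested in each line, against 31.3% and 33.6% of all genes. PCDH1 and PCDH12 are also among the genes around the locus, and PCDH1, called higher in β-arrestin1/2 KO, counts in both lists. PCDH10, a δ2-protocadherin, rose in Gαs KO (1.37 ± 0.13, adjusted p = 6.7e-07 by edgeR), as did FAT4, a giant cadherin (1.06 ± 0.17, adjusted p = 0.00017), while DCHS1, the gene of its ligand, was lower (-1.27 ± 0.29, adjusted p = 0.0031). In β-arrestin1/2 KO the signs of the last 2 were turned, with FAT4 at -0.67 ± 0.17 (adjusted p = 0.0068) and DCHS1 at 1.04 ± 0.28 (adjusted p = 0.0081). PCDH9 was higher in β-arrestin1/2 KO (1.09 ± 0.11, adjusted p = 1.6e-06).

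Of the regulators of protocadherin promoter choice, all 26 on the list were tested, and at basal 5 were higher and 3 lower in Gαs KO and 2 higher and 7 lower in β-arrestin1/2 KO (medians 0.04 and -0.17). These are 30.8% and 34.6% of the list, near the 31.3% and 33.6% of all genes. CTCF was slightly higher in both, by 0.28 ± 0.08 (adjusted p = 0.015 by edgeR) and 0.22 ± 0.08 (adjusted p = 0.046). DNMT3B, a de novo DNA methyltransferase that has been tied to methylation of these promoters, fell by 0.89 in Gαs KO (SE 0.10, adjusted p = 6.3e-06) and by 0.73 in β-arrestin1/2 KO (SE 0.10, adjusted p = 4.6e-05). TET2, which oxidises methylated cytosine, was higher by 0.50 ± 0.17 and 0.54 ± 0.17 (adjusted p = 0.036 and 0.024). TET1 and TET3 went the other way in β-arrestin1/2 KO, at -0.48 ± 0.17 and -0.21 ± 0.07 (adjusted p = 0.0397 and 0.036 by edgeR). Neither was called in Gαs KO. The cohesin subunit gene STAG1 was higher in Gαs KO than in wildtype (0.55 ± 0.09, adjusted p = 0.00014) and than in β-arrestin1/2 KO (adjusted p = 0.00026), and SMC1A, another cohesin subunit, was lower in both (-0.41 ± 0.06 and -0.23 ± 0.06). EHMT2, a histone methyltransferase gene called lower in β-arrestin1/2 KO, was listed at 0 in its 3 basal libraries but also in single libraries of other groups (62.4 ± 54.3 in Gαs KO basal) and its value is uncertain. Their part in the member differences was not tested.

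Genes for protein partners and cleavage of protocadherins were tested in full, 17 of 17. At basal 2 were higher and 7 lower in Gαs KO, and 4 higher and 3 lower in β-arrestin1/2 KO (medians -0.03 and 0.03), which is 52.9% and 41.2% of the list against 31.3% and 33.6% of all genes. WASF3, of the WAVE complex that binds protocadherin tails, was lower in both (-0.70 ± 0.08 and -0.78 ± 0.08, adjusted p = 4.3e-06 and 1.5e-06 by edgeR), and so was the focal adhesion kinase gene PTK2 (-0.43 ± 0.09 and -0.55 ± 0.09). NCSTN, a subunit of the protease that cleaves these proteins in the membrane, was higher in both (0.26 ± 0.09 and 0.64 ± 0.09). RET, a receptor kinase reported as a partner of these proteins, was lower in Gαs KO (-1.02 ± 0.31, adjusted p = 0.021) and higher in β-arrestin1/2 KO (0.97 ± 0.30, adjusted p = 0.021). No gene of these 3 lists or of the neighbours and pseudogenes was called in an isoproterenol response.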

How the data were processed

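Poly-A RNA was sequenced from 18 HEK293 libraries (6 groups, 3 replicates). The authors deposited expected counts (estimated counts) per transcript from Salmon 1.7.0 on GRCh38 (tool and build per the submitters' processing notes). The transcript release and index are not given in the sources used here. Transcripts were matched to GENCODE release 29 (161798 of 184844), summed per gene and rounded. TPM used annotated lengths. edgeR 4.0.16 (R 4.3.3) fitted all 18 libraries with TMM scaling and 1 coefficient per group after filterByExpr, with the quasi-likelihood test and Benjamini-Hochberg adjustment over 15519 genes. DESeq2 1.42.0 was an alternative and was also named in the submitters' notes. The fit was tested on simulated data. Counts were 17908597 to 25019834 per library, and counting intervals are exact 95% binomial ones. Replicates are labelled biological, and how separately they were grown is not given. Same-numbered libraries did not deviate together.

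Members named with values were the 3 highest per cluster and line, up to 4 called per direction and KO line with the largest fold change, any called after isoproterenol and the C-type genes, and of each other list up to 3 called genes per direction and basal comparison. Others are named within counts or were chosen after their values were seen. The members and lists were chosen with earlier results of these data known. Alternatives were other scalings, filters, tests, GC and length offsets, a replicate block and leaving out libraries.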

Additional observations from a re-analysis of the deposited data

How the results depend on the processing

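Counts of members called kept within 1.5 times of those reported under other scalings, offsets and DESeq2. With at least 10 counts in every library, which only 9 members have, 5 were called in β-arrestin1/2 KO and 4 in Gαs KO against wildtype and 3 between the KO lines at basal. With only the libraries compared these were 6 in β-arrestin1/2 KO against wildtype and 14 between the KO lines. At an adjusted p under 0.01, 11 were called in β-arrestin1/2 KO. Leaving out 1 library gave 0 to 1 for the β-arrestin1/2 KO response difference (PCDHB12 without library 1 of wildtype basal), 14 to 22, 19 to 24 and 6 to 12 for the 3 basal comparisons. Without library 1 of wildtype basal they were 19, 24 and 12. DESeq2 called 24, 24 and 11. The PCDHA sum in β-arrestin1/2 KO against Gαs KO moved from 0.781 to 0.691 when scaled by length. Detected members at basal in wildtype were 19 and 5 with at least 3 and 30 counts in every library, and 9 and 18 with at least 30 in β-arrestin1/2 KO and Gαs KO. Over all genes, fitting only the libraries compared gave 1501 calls in β-arrestin1/2 KO and 1587 in Gαs KO against wildtype at basal, and 7172 between the KO lines, against 5208, 4864 and 4064. Without library 1 of wildtype basal 1849 genes were called in the β-arrestin1/2 KO response, against 175, and 1302 in its difference from wildtype, against 26. GC and length offsets gave 6655 between the KO lines, and 232 and 377 in the wildtype and β-arrestin1/2 KO responses, against 72 and 175. The cause of these shifts was not tested.

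The replicate block, with numbers that do not pair the samples, gave 19, 23 and 7 calls for β-arrestin1/2 KO and Gαs KO against wildtype and between the KO lines, and 0 for each isoproterenol response. With GC and length offsets as well it gave 24, 24 and 10. No alternative turned the sign of a called member. Of the 1253 refits of single called members under these alternatives, 1179 stayed called and 74 did not. Low counts limit most members, and reads shared by members of a cluster cannot be assigned with certainty.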
